A study of Mus musculus with 64 samples.

Results

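The 10 genes of the formative state and the Nodal pathway, each present among the 23338 genes of every table, were followed through 64 mouse RNA-seq libraries: Fgf5, Otx2, Lef1, T, Sox11, Pou3f1, Nodal, Lefty1, Lefty2 and Tdgf1. The rows were matched by gene name. All samples were labelled as C57BL/6 (C57BL/6 J in the study's methods) and no allele or transgene is given for any of them. There were 12 single eight-cell embryos flushed at 2.5 dpc (days post-coital) after natural mating (6 male, 6 female), 4 ES cell lines (lines 1 and 2 male, lines 3 and 4 female), 24 late-gestation fetal livers (12 male, 12 female) and 24 livers of adults aged 15 to 20 weeks (12 male, 12 female). Each ES line was derived from 1 eight-cell embryo and grown in 2i with LIF. 2i combines the MEK inhibitor PD0325901 with the GSK3 inhibitor CHIR99021. A sex in ES cells was therefore represented by 2 lines, each a single genotype. Embryo cDNA was made with an amplifying single-cell protocol and all other libraries with a stranded total RNA kit, so the eight-cell stage and its protocol cannot be told apart. Per the study's methods, embryos were sexed from transcripts of sex-linked genes. The labels give no litter. ES lines were compared with embryos and with fetal livers, and fetal livers with adult livers, so these comparisons share samples.

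Nodal is a TGF-beta family ligand that acts through activin receptors, SMAD2 and SMAD3 and the DNA-binding partner FOXH1. Tdgf1 (Cripto) is its co-receptor, while the secreted inhibitors Lefty1 and Lefty2 are induced by the signal and restrain it. Nodal signalling is active in the epiblast, and naive ES cells also run it. When cells leave the naive state, formative factors such as Otx2, Pou3f1 (Oct6) and the growth factor Fgf5 rise, and MEK inhibition holds this step back. T (brachyury) marks the primitive streak and is a target of Wnt and TCF/LEF factors, of which Lef1 is one. Sox11 is a SoxC transcription factor of neural and other progenitors.

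The windows upstream of 4 members are shown because these genes were higher in ES lines than in embryos and have 1 RefSeq transcription start each. RefSeq windows (GRCm38.p6) matched 7 of the 10 members by symbol. Lefty1, Lefty2 and Pou3f1 had no entry. The 250 bases before the start are written 5′ to 3′ on the gene's strand. Capitals mark matches, on either strand, of the TCF/LEF letters CTTTGA, the SMAD letters CAGAC and the FOXH1 letters AATNNACA. In the 32851 windows of the same length, 13.8% held the TCF/LEF letters, 42.2% the SMAD letters and 10.9% the FOXH1 letters.
T (chr17:8434173-8434422, + strand): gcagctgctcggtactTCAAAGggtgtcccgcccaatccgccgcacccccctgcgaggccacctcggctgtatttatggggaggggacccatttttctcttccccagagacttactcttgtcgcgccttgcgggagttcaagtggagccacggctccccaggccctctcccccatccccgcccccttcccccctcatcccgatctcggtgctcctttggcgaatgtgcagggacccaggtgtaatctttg
Tdgf1 (chr9:110946159-110946408, - strand): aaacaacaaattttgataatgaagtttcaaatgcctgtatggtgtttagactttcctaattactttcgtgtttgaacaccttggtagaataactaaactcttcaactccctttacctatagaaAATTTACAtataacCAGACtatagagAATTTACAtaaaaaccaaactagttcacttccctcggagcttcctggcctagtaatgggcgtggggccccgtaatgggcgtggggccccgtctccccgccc
Nodal (chr10:61417722-61417971, + strand): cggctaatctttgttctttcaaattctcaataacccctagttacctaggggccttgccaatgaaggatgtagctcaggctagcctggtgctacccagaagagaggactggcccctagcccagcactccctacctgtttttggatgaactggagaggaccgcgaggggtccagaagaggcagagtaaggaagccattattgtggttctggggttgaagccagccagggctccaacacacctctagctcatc
Sox11 (chr12:27342719-27342968, - strand): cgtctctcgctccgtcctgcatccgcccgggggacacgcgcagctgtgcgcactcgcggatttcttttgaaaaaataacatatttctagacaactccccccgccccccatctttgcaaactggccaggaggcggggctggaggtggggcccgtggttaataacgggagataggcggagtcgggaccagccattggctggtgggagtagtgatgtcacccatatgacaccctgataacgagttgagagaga
The T window held 1 TCF/LEF match. The Tdgf1 window held 1 SMAD and 2 FOXH1 matches, and the windows of Nodal and Sox11 held 0 of any of the 3. These are matches of letters only and show no binding.

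Reads counted on genes ranged from 9857929 to 10386931 in ES lines, from 4659656 to 7725432 in embryos, from 5145371 to 8499603 in fetal livers and from 1567583 to 4757610 in adult livers. Values are CPM (counts scaled to a fixed total of reads on genes), and a level of 3 reads, used as the detection floor, was 0.289 to 0.304 CPM in ES lines, 0.388 to 0.644 in embryos, 0.353 to 0.583 in fetal and 0.631 to 1.91 in adult livers. Naive pluripotency markers summed to between 4179 and 5353 CPM in ES lines, and hepatocyte markers to between 20531 and 27635 CPM in fetal and 31484 and 47260 in adult livers, as the labels say. One library stood apart: fetal liver female 14 had 24.8 CPM of Cdx2, where the other 23 fetal livers had at most 0.182, and 103 CPM of Pdgfra against 23.9 to 54.3. Values of the fits that use it are given below without it where they move. Correlations over fetal livers were not repeated without it alone.

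**Figure D1:**
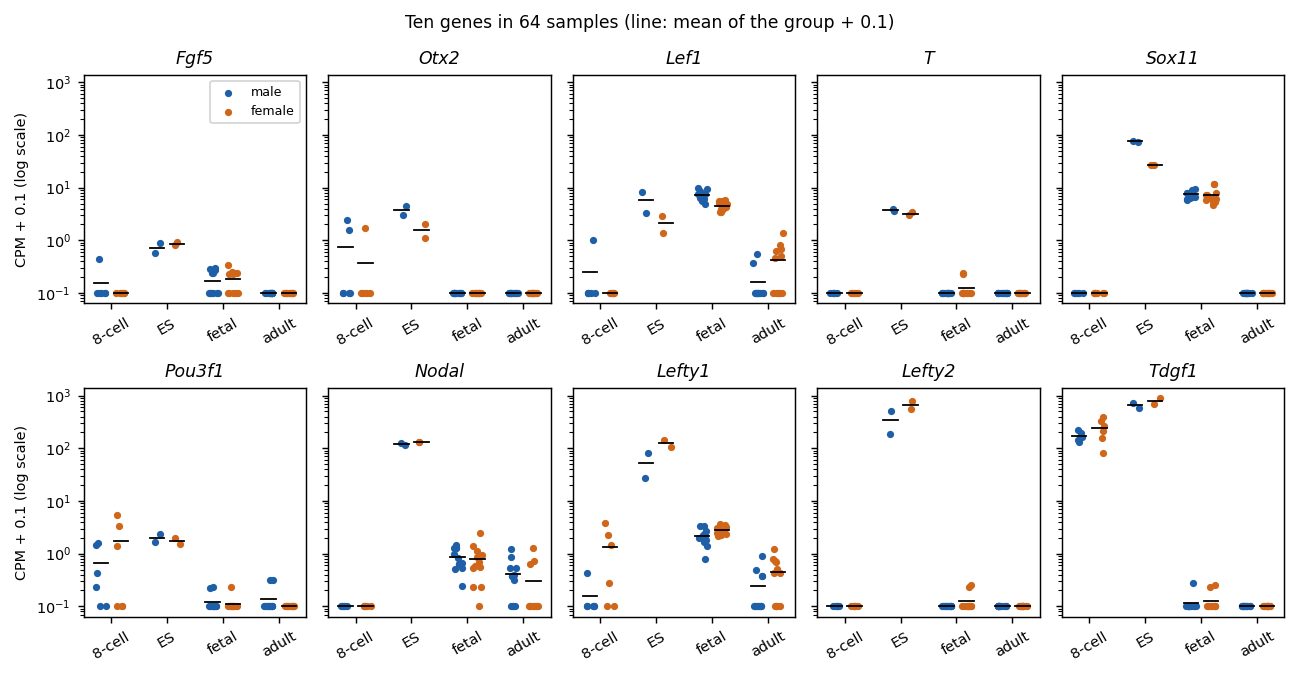
CPM + 0.1 on a log axis for each gene in each of the 64 libraries, by stage and sex (blue male, orange female; the black line is the group mean + 0.1, and points at 0.1 have no read). Tdgf1 is the one gene at high level in both embryos and ES lines, and fetal livers hold mainly Lef1, Sox11 and Lefty1.

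The Nodal pathway members were the most abundant in ES cells. Per kilobase of exon (GENCODE M21), Tdgf1 was first at 276 ± 47.6 CPM per kb (SD, n = 4), then Lefty2 at 195 ± 93.7, Nodal at 59.9 ± 4.11 and Lefty1 at 50.5 ± 28.0. Sox11 followed at 6.14 ± 3.34 and T at 1.47 ± 0.169. Otx2, Pou3f1, Lef1 and Fgf5 were lowest, at 0.603, 0.460, 0.442 and 0.277 CPM per kb. The ranges over lines overlapped between neighbours in this order, except that the 4 pathway genes, Sox11, T and the lowest group were separate blocks and that Lefty2 and Nodal did not overlap.

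The 3 formative factors were thus present but low. Fgf5, at chr5:98254184-98277030 (GRCm38, GENCODE M21, as for all positions below), had 5 to 8 reads in each line, or 0.481, 0.777, 0.700 and 0.812 CPM in lines 1 to 4. Pou3f1, a POU factor at chr4:124656807-124660655, had 2.21, 1.55, 1.90 and 1.42 CPM. Otx2, a homeodomain factor at chr14:48657677-48673819, had 2.89, 4.37, 1.90 and 1.01 CPM. For Fgf5 and Pou3f1 the 95% Poisson intervals of all 4 lines overlapped. The intervals of Otx2 in line 2 (3.19 to 5.85) and line 4 (0.486 to 1.87) did not. These intervals, and the floors, describe counting error alone, because amplified reads carried no molecular identifiers.

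Nodal was even across the lines, Tdgf1 less so, and the Lefty genes varied most of these 4. Nodal (chr10:61417972-61425338) had 113, 125, 133 and 130 CPM in lines 1 to 4. Tdgf1 (chr9:110939603-110946158) had 587, 712, 889 and 706 CPM. Lefty1 (chr1:180935022-180938400) had 79.5, 26.6, 144 and 105 CPM, and the neighbouring Lefty2 (chr1:180893108-180899103) had 499, 190, 783 and 561. Line 3 was highest and line 2 lowest for both Lefty genes, with no overlap of the 95% Poisson intervals of any 2 lines. The highest line exceeded the lowest 5.41-fold for Lefty1 and 4.12-fold for Lefty2, but 1.17-fold for Nodal and 1.52-fold for Tdgf1. Over the 8996 genes that averaged 10 CPM or more in ES lines the median of this ratio was 1.29. A ratio at least as wide was found in 0.522% of these genes for Lefty1, 1.11% for Lefty2, 74.0% for Nodal and 25.8% for Tdgf1. Per kilobase, Lefty2 stood above Lefty1 in every line, by 4.23, 4.80, 3.66 and 3.61-fold. The Lefty genes are close paralogs and reads that aligned to both were not counted on genes, so their levels may be low and their ratio uncertain.

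**Figure D2:**
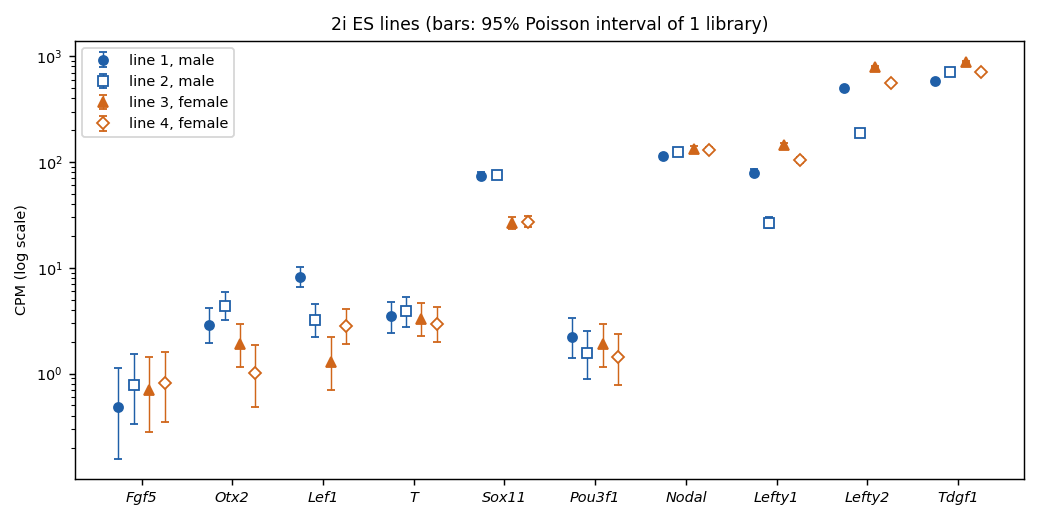
CPM on a log axis of each gene in each of the 4 ES lines, with the 95% Poisson interval of the library's count. Sox11 splits by sex (74.5 and 75.6 against 26.5 and 27.4), Lefty1 and Lefty2 dip in line 2, and Nodal hardly varies.

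T, Sox11 and Lef1 showed 3 patterns among the lines. T (chr17:8434423-8442496) was alike in all, at 3.47, 3.89, 3.30 and 2.94 CPM. Sox11 (chr12:27334264-27342574) was at 74.5 and 75.6 CPM in the male lines and 26.5 and 27.4 in the female lines. Its ratio of highest to lowest line, 2.85, was reached by 3.08% of the 8996 genes. Lef1 (chr3:131110471-131224356) had 8.18 CPM in line 1, with an interval of 6.54 to 10.1, and 3.21, 1.30 and 2.84 in the others. Line 1 thus carried the high value of Lef1, and line 2 the low value of the Lefty genes.

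Male and female ES lines were compared to ask which members differ with sex in naive cells. Of the 10 members, 9 passed the filter on low counts (Fgf5 did not) and 1 passed the test, which was an adjusted p under 0.1 with an absolute log2 (male/female) above 0.5. Over all 12678 genes 9.5% passed. Sox11 was 2.79-fold higher in male lines, a log2 of 1.44 (SE 0.103, edgeR adjusted p = 0.0104), without overlap. Within each sex the Poisson intervals of the lines overlapped. Leaving out either female line kept the log2 of Sox11, at 1.41 and 1.47, but the adjusted p rose to 0.210 without line 3 and 0.262 without line 4. Its unadjusted p was 0.000940 and 0.000840 there, and edgeR called 0 genes of the whole table in both fits. With 2 lines against 2, a permutation test of a single gene cannot go below p = 0.333.

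The other members did not pass. Otx2 was higher in both male lines (log2 1.27, SE 0.438, edgeR adjusted p = 0.161), and so was Lef1 (1.42, SE 0.597, adjusted p = 0.221). Lefty1 (-1.26, SE 0.489, adjusted p = 0.196) and Lefty2 (-0.996, SE 0.447, adjusted p = 0.244) were lower in both male lines. Nodal (-0.18, adjusted p = 0.294) and Tdgf1 (-0.33, adjusted p = 0.219) differed little, and Tdgf1 overlapped between the sexes. For T and Pou3f1 the log2 was 0.20 and 0.15. Without line 1 Otx2 passed (log2 1.53, adjusted p = 0.00440), and without line 2 Lef1 passed (log2 1.95, adjusted p = 0.000125). Each of these fits had a single male line, assumed to vary like the female lines, and for Lef1 it was line 1 with its 8.18 CPM.

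Other genes of the pathway lists were read in the same fit. Furin and Pcsk6, proprotein convertases that process Nodal, were lower in male lines. Furin had 9.34 and 16.6 CPM in the male and 34.7 and 31.3 in the female lines (log2 -1.39, adjusted p = 0.0494). Pcsk6 had 120, 160, 204 and 203 CPM in lines 1 to 4 (log2 -0.57, adjusted p = 0.0830). They were 2 of the 6 tested genes among the listed ligands, proteases and co-receptors, and both fell in the male lines. The lists of receptors and effectors (7 tested), Nodal or activin inhibitors (7 tested), Wnt/TCF genes (10 tested) and ERK-responsive genes (6 tested) had 0 calls. Their median log2 was 0.14, -0.07, 0.11 and 0.17, against 0.02 for all genes tested. Zic2, a zinc finger factor of the formative and primed epiblast list, was the 1 called gene of the 12 tested there, at 55.7 and 47.9 CPM in the male and 27.8 and 23.5 in the female lines (log2 0.98, adjusted p = 0.0267).

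Line 2, lowest in both Lefty genes, was also lowest in the methyltransferases Dnmt3a (18.4 CPM against 41.0 to 49.0 in the other lines) and Dnmt3b (115 against 129 to 220). It was highest in Fst, the follistatin gene, at 27.7 CPM against 7.51 to 11.4. Line 1, highest in Lef1, was not highest throughout the Wnt/TCF list. It had the most Axin2 (79.8 CPM against 47.0 to 58.9) and Notum (232 against 111 to 153), but the least Cdx1 (5.30 against 10.4 to 23.1), and T was highest in line 2. These line patterns were described from the values and not tested. Summed markers of primitive endoderm were 5.58, 9.14, 5.30 and 6.29 CPM, and those of trophoblast 4.14, 7.48, 6.00 and 7.61, in lines 1 to 4. Naive markers summed to 4179, 5353, 4999 and 4869 CPM. Their part in the line differences was not tested.

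**Figure D3:**
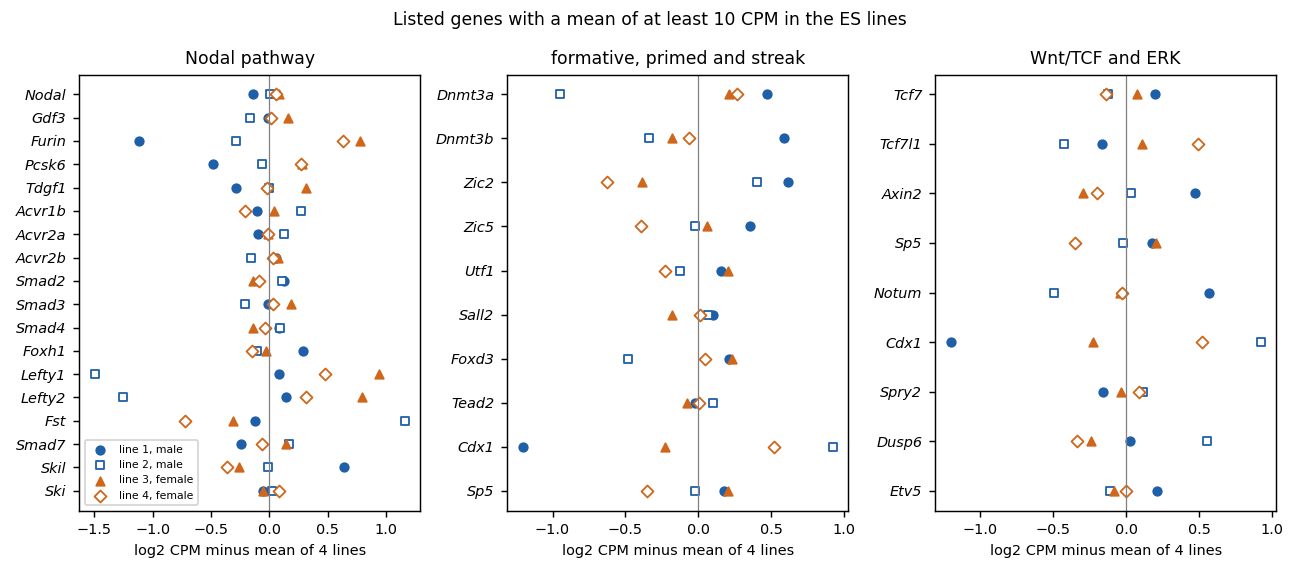
log2 CPM of each listed gene that averaged 10 CPM or more, minus its mean over the 4 ES lines, for lines 1 and 2 (blue, male) and 3 and 4 (orange, female). Lefty1, Lefty2 and Dnmt3a lie to the left in line 2, and Furin and Zic2 separate the sexes in opposite directions.

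Eight-cell embryos held 1 of the 10 transcripts at a clear level. Tdgf1 had reads in all 12, from 132 to 222 CPM with a median of 164 in males and from 82.3 to 396 CPM with a median of 242 in females. Nodal, Lefty2, Sox11 and T had 0 reads in all 12. Fgf5 had 2 reads in 1 embryo and Lef1 6 reads in 1 embryo. Otx2 was seen in 3 embryos, with 8, 18 and 9 reads, and Pou3f1 in 7, at up to 29 reads (5.26 CPM). Lefty1 had reads in 1 of 6 male embryos (2 reads) and 4 of 6 female embryos (1 to 28 reads). These low genes were present in some embryos and absent from the counts of others, and reads amplified from few molecules vary more than counting error.

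Between male and female embryos only Tdgf1 could be tested, since the other 9 did not pass the filter. Its log2 (male/female) was -0.55 (SE 0.276, edgeR adjusted p = 1.00) and the sexes overlapped. The share of genes called was 0.264% of 9087, and the lack of a call for Tdgf1 does not show equal levels. The 3 genes most like Tdgf1 over the 12 embryos, after removing each sex mean, were Ebna1bp2 (r = 0.944), Ahsa1 (r = 0.886), a co-chaperone of Hsp90, and Slc38a4 (r = 0.883), an amino acid transporter. They are the top 3 of 8274 genes compared, and the points share library depth.

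Between ES lines and embryos, 6 members rose in ES lines: Nodal, Lefty1, Lefty2, Tdgf1, Sox11 and T. The thresholds for stages were an adjusted p under 0.05 and an absolute log2 above 1. Of all 12478 genes tested, 31.4% were called higher and 21.5% lower in ES lines, and the median log2 of all genes was 0.44, so that members are to be read against a shift of this size. Against the 0 reads in embryos, a level of 3 reads in the shallowest embryo library gives Lefty2 as at least 790-fold higher in ES lines, Nodal at least 195-fold, Sox11 at least 79.2-fold and T at least 5.28-fold. Lefty1 had a log2 (ES/8-cell) of 7.58 (SE 0.961, adjusted p = 3.82e-06) and Tdgf1 of 1.45 (SE 0.249, adjusted p = 0.000102), without overlap of the stages. Otx2 (means of 2.54 and 0.455 CPM, adjusted p = 0.190) and Pou3f1 (0.67, SE 1.32, adjusted p = 0.685) did not pass and overlapped between the stages. The lack of a call for Otx2 and Pou3f1 does not show equal levels. Fgf5 and Lef1 did not pass the filter. Their ES values, 0.481 to 0.812 and 1.30 to 8.18 CPM, lay above those of every embryo, which reached 0.340 and 0.901. For Fgf5 this lay near the embryo floor of 0.388 to 0.644 CPM, so a level like that of ES lines could go unseen. A member filtered in only through its ES level had to differ, so the number that passed is a description.

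In the Nodal and activin lists, which hold members too, more ligand and inhibitor genes rose than fell. The share of receptors and effectors that rose was near that of all genes. Listed genes filtered in only through their ES or only through their embryo level had to differ, so the list counts and medians are descriptions. Of the listed ligands, proteases and co-receptors, 5 of 6 tested rose in ES lines and 0 fell, with a median log2 of 1.75. Beside Nodal and Tdgf1 these were the ligand Gdf3, at 193 against 23.5 CPM (log2 2.67), Furin (1.86) and Pcsk6 (1.63). Of the receptors and effectors, 2 of 7 rose, the type I receptor Acvr1b at 32.5 against 0.119 CPM and Foxh1 at 45.8 against 4.89 CPM, with a list median of 0.74. Smad2, Smad3 and Smad4 had log2 values of 0.34, 0.74 and -0.50 and did not pass. Of the inhibitors, 5 of 7 rose, among them Smad7 (log2 3.37), Skil (3.08) and Fst, which had 14.1 CPM against 0 reads, and 1 fell, the corepressor Ski (66.1 against 101 CPM), with a median of 3.37. Ski passed the fold threshold narrowly, and with library totals alone its log2 was -0.61 and did not pass.

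The formative, streak, Wnt and ERK lists each held genes that rose and genes that fell. The same limit of the filter holds for their counts and medians. In the formative and primed list 5 of 12 rose and 2 fell (median 1.38). Zic2, Sall2 and Zic5 had 38.7, 10.8 and 10.03 CPM in ES lines and 0 reads in embryos, whereas Grhl2 (-4.43) and Dnmt3a (-1.58) fell. In the primitive streak list 5 of 8 rose and 1 fell (median 5.94, or 3.42 with genes without reads set at 3 reads). Sp5 (7.81) and Cdx1, with 14.1 CPM against 0 reads, were among them beside T, and Mixl1 (-5.48) fell. Of the Wnt/TCF genes, 5 of 8 rose, including the feedback inhibitor Axin2 at 59.0 against 0.511 CPM, and Tcf7l2 (-2.51) fell, but not with library totals alone (adjusted p = 0.0766). The list median was 6.91, or 3.81. Of the ERK-responsive genes 2 of 8 rose, Etv4 (6.83) and Etv5 (3.45), and Phlda1 (-4.48) fell (median 1.24).

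Fetal liver held Lef1, Sox11 and Lefty1 in all 24 libraries, each above 3 reads. Per kilobase, Lefty1 was first at 1.36 ± 0.399 CPM per kb (SD, n = 24), then Sox11 at 0.864 ± 0.214, Lef1 at 0.663 ± 0.209 and Nodal at 0.352 ± 0.250, with overlapping ranges throughout. Lef1 ranged from 3.32 to 9.75 CPM with a median of 5.54, Sox11 from 4.67 to 11.6 with a median of 6.87, and Lefty1 from 0.694 to 3.53 with a median of 2.38. Nodal had 0 to 16 reads, more than 3 in 12 of 24 libraries. Fgf5 had at most 2 reads per library, T, Lefty2, Pou3f1 and Tdgf1 at most 1, and Otx2 had 0 in all 24. In whole liver, fewer cells of a type and less RNA per cell cannot be told apart.

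Of the members, 6 of the 7 tested were higher in ES lines than in fetal liver, where 23.8% of 14333 genes were called higher and 32.4% lower. Nodal had a log2 (ES/fetal liver) of 7.27 (SE 0.194) and Lefty1 of 5.00 (SE 0.166). T, Lefty2 and Tdgf1 had 2, 2 and 3 reads over the 24 fetal libraries, under the floor, and were tested only through their ES level. So was Nodal, with a fetal median of 0.572 CPM. The number of members that passed is therefore a description. The ratio of pooled reads, with an exact 95% interval for counting error only, was 276-fold (75.0 to 2302) for T, 41008-fold (11351 to 338638) for Lefty2 and 39033-fold (13355 to 189283) for Tdgf1. Sox11, present in both, had a log2 of 2.61 (SE 0.165, adjusted p = 1.34e-15), without overlap. Lef1 went the other way, 3.88 ± 2.98 CPM (SD, n = 4) in ES lines and 5.83 ± 1.84 (SD, n = 24) in fetal liver. Its log2 of -0.80 (SE 0.216, adjusted p = 0.00105) was short of the threshold of 1, and the stages overlapped. Without line 1 the log2 was -1.27 (adjusted p = 4.28e-06) and passed. Otx2, Pou3f1 and Fgf5 did not pass the filter. Otx2 was at least 4.36-fold higher in ES lines, against 3 reads in the shallowest fetal library.

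Ligand genes moved in both directions between ES lines and fetal liver, and few receptor and effector genes passed. Listed genes filtered in only through their ES or only through their fetal level had to differ, so the list counts and medians are descriptions. Foxh1 (log2 5.92) and Acvr2b (1.28) were the 2 of 7 receptors and effectors that rose in ES lines, and Acvr1b, Smad2, Smad3 and Smad4 had log2 values from -0.34 to 0.28, short of the threshold of 1 (list median 0.28, all genes -0.03). Among ligands, proteases and co-receptors 4 of 7 rose, including Gdf3 (6.88) and Pcsk6 (2.30), and 2 fell, the activin subunit Inhba (-8.70) and Furin (-1.85), with a median of 2.30. Of the inhibitors 3 of 7 rose, Smad7 (2.63) beside both Lefty genes, and 0 fell (median 0.52). In the formative list 8 of 10 rose, including Zic2, Utf1 and Zic5, which had 0 reads in fetal liver, and Dnmt3a (-1.72) fell (median 4.04, or 3.61). In the streak list 6 of 8 rose, Sp5 (9.42), Gsc (7.75) and Eomes (6.68) the most beside T, and Foxa2 (-6.17) and Tbx6 (-4.41) fell (median 6.00). Of the Wnt/TCF genes 7 of 11 rose, such as Notum (8.47), and Lgr5 (-3.75), Nkd1 (-2.68) and Tcf7l2 (-2.42) fell (median 2.84). Of the ERK-responsive genes 3 of 9 rose, Etv5 (5.19), Etv4 (4.93) and Spry2 (3.70), and 5 fell, including Egr1 (-5.76), Dusp6 (-3.46) and Phlda1 (-3.29), with a median of -1.42.

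Male and female fetal livers differed in Lef1. In males it had 4.88 to 9.75 CPM with a median of 7.35, and in females 3.32 to 5.78 with a median of 4.49. Most male livers lay above most female livers, with overlap between 4.88 and 5.78 CPM. The log2 (male/female) was 0.67 (SE 0.124, edgeR adjusted p = 0.000165, means 7.18 and 4.48 CPM). Of 12930 genes 4.64% passed, and Lef1 was 1 of 3 members tested. The share of reads outside genes also separated the sexes, at 39.9% to 49.0% in males and 34.1% to 38.1% in females. With this share as a covariate the log2 of Lef1 was 0.40 (SE 0.247, adjusted p = 0.933), and 9 genes in all passed, down from 600. Because the share did not overlap between the sexes, this fit cannot tell the share and sex apart. The part of the share in the difference was not tested otherwise.

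Sox11 was near equal between the sexes and Lefty1 was lower in males by less than the fold threshold. Sox11 had 5.71 to 9.49 CPM in males and 4.67 to 11.6 in females (log2 0.05, SE 0.131, adjusted p = 0.815). Lefty1 had 0.694 to 3.30 CPM in males, with a median of 2.02, and 2.03 to 3.53 in females, with a median of 2.63. Its log2 of -0.41 (SE 0.171, adjusted p = 0.0684) was under the adjusted p limit of 0.1 but short of the log2 threshold of 0.5. Without female 14 the log2 was 0.64 for Lef1, 0.13 for Sox11 and -0.45 for Lefty1, and the calls did not change. Of all 600 genes called between the fetal sexes, 82.2% were higher in males, so list directions are to be read against this share. Of the listed Wnt/TCF genes, 3 of 6 tested were higher in males and 0 lower (median 0.58, all genes -0.03). Beside Lef1 these were the TCF factors Tcf7l2, with means of 20.4 and 10.7 CPM (log2 0.92, adjusted p = 1.21e-05), and Tcf7l1, with 4.64 and 2.58 (log2 0.84, adjusted p = 0.00718). Of the ERK-responsive genes, 2 of 8 were higher in males, Egr1 (1.07) and Phlda1 (0.74), and the Nodal, formative and streak lists had 0 calls. With the share of reads outside genes as a covariate, 0 of these 5 listed genes passed. The log2 was then 0.13 for Tcf7l2 and 1.16 for Egr1, and it turned to -0.12 for Tcf7l1 and -0.45 for Phlda1 (edgeR adjusted p from 0.869 to 0.995).

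**Figure D4:**
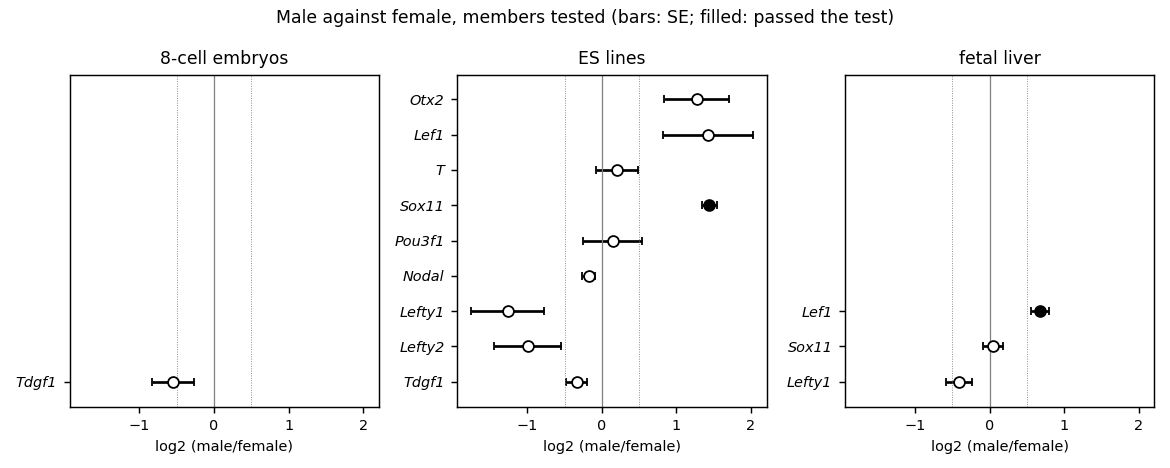
log2 (male/female) with its SE for each member that was tested in embryos, ES lines and fetal livers; filled points passed the test and dotted lines mark 0.5. Sox11 in ES lines (1.44) and Lef1 in fetal liver (0.67) are filled.

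Lef1 is also expressed in lymphoid progenitors, so their markers were read beside it. All 12 B lymphoid progenitor markers were detected in both sexes and none was at 0. They summed to between 132 and 221 CPM in males, with a median of 178, and between 112 and 228 in females, with a median of 186. Pax5 alone was called, at 5.51 against 3.38 CPM (log2 0.70, adjusted p = 0.000906). It is 1 of 12 markers, where 4.64% of all genes were called and 82.2% of calls were higher in males. With the share of reads outside genes as a covariate, 9 genes in all passed, down from 600. The 7 T lymphocyte markers summed to 3.10 to 8.51 CPM in males and 6.67 to 9.87 in females. Over all 24 livers Lef1 followed the B markers with Pearson's r = 0.487 (permutation p = 0.0155, adjusted over 3 relations 0.0232) and Spearman's rho = 0.453 (p = 0.0273, adjusted 0.0410). Without the 2 livers farthest from the median marker level, females 14 and 22, r was 0.265, so the pooled relation rests on them. Within females r was 0.773 (permutation p = 0.00235, adjusted 0.00705), rho 0.734 (p = 0.00840, adjusted 0.0252), and 0.668 without 2 livers. Within males r was 0.244 (permutation p = 0.447, adjusted 0.447), rho 0.364 (p = 0.247, adjusted 0.247), and r was 0.128 without 2 livers. With levels scaled by TMM factors the male r was 0.249, and 0.637 without 2 livers, so the male value was not stable. Whether the relation differs between the sexes was not tested, nor the part of these cells in the difference in Lef1.

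**Figure D5:**
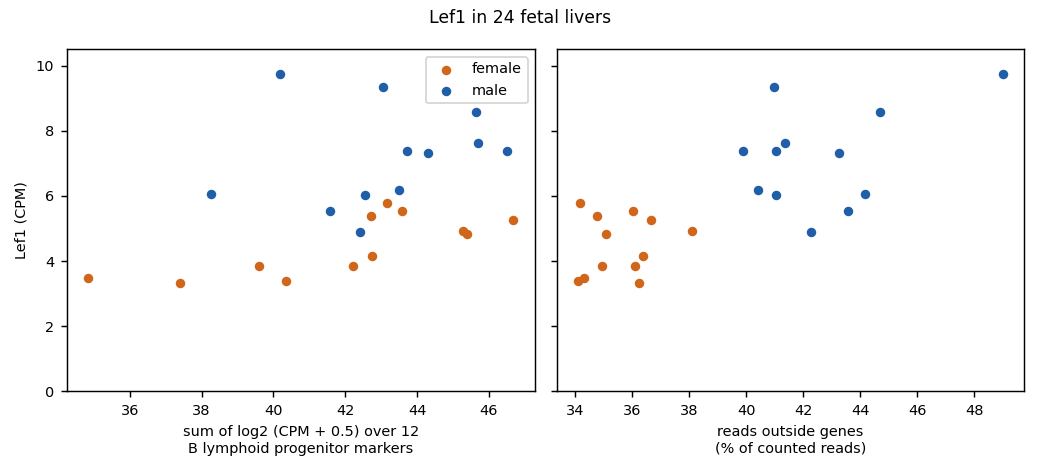
Lef1 CPM in the 24 fetal livers against the summed log2 (CPM + 0.5) of 12 B lymphoid progenitor markers (left) and against the percentage of counted reads outside genes (right), blue male and orange female. The marker sums of the sexes overlap, while the shares do not, with males at 39.9% or more and females at 38.1% or less.

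Lef1 and Sox11, the members with at least 5 CPM in fetal liver, were also set beside every other gene, as a description. After removing sex means over the 24 livers, the genes most like Lef1 among 11321 were Wdfy4 (r = 0.800), 5830473C10Rik (r = 0.777) and Fhl3 (r = 0.742). Those most like Sox11 were Serpinh1 (r = 0.803), Tro (r = 0.798) and Fkbp10 (r = 0.783), of which Serpinh1 and Fkbp10 encode collagen chaperones. The highest Sox11 values, 11.6 and 11.4 CPM, were in females 14 and 15, which also had the highest Pdgfra, 103 and 54.3 CPM. Pdgfra marks mesenchymal cells, and its part in the level of Sox11 was not tested.

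Adult liver had almost none of these transcripts. Fgf5, Otx2, T, Sox11, Lefty2 and Tdgf1 had 0 reads in all 24 libraries, which at 3 reads allows up to 0.631 to 1.91 CPM. Lef1 had 10 reads in all, over 8 livers, Lefty1 16 over 11, Nodal 18 over 11 and Pou3f1 2 over 2. Lef1 was higher in fetal than in adult liver (edgeR adjusted p = 6.54e-23), without overlap. Every adult library was under the floor, so Lef1 was tested only through its fetal level. The ratio of pooled reads, 940 against 10, was 38.4-fold with an exact 95% interval of 20.8 to 80.4 for counting error only. Sox11, with 0 adult reads, was at least 3.75-fold higher in fetal liver. These 2 were the only members tested, and 23.2% of 12647 genes were called higher and 19.4% lower in fetal liver. Lefty1 did not pass the filter, with means of 2.39 and 0.243 CPM and overlapping ranges.

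Other listed genes moved in both directions between the livers. Those filtered in only through their fetal or only through their adult level had to differ, so the list counts and medians are descriptions. Of 8 Wnt/TCF genes tested 1 was higher in fetal liver, Lef1 itself, and 4 were lower, including Notum (log2 -7.28), Axin2 (-2.99) and Lgr5 (-2.06), which mark Wnt-active pericentral hepatocytes in the adult (list median -0.84, all genes 0.04). Pcsk6 (-2.54), Furin (-1.37) and the inhibin subunit Inhbb (-1.36) were lower in fetal liver, 3 of 4 tested in their list (median -1.36). With library totals alone, which moved the median of all genes by 0.56, 13 of the 19 called listed genes remained called. Furin (-0.80), Inhbb (-0.80), Smad7 (-0.68), Foxa2 (-0.98), Nkd1 (-0.93) and Dusp4 (-0.55) were then short of the threshold of 1. Of 6 receptors and effectors 0 were called (median -0.30). Of 5 inhibitors Fst (1.85) was higher and Smad7 (-1.24) lower (median -0.0024). In the formative list 2 of 4 were higher, Tead2 (2.94) and Dnmt3b (1.62), with a median of 1.29. In the streak list Tbx6 (2.03) was higher and Foxa2 (-1.54) lower, 2 of 2 tested (median 0.24). Of 8 ERK-responsive genes Ier3 (2.65) and Spry2 (1.48) were higher and 3 were lower, Phlda1 (-1.91), Spry4 (-1.63) and Dusp4 (-1.12), with a median of -0.04.

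No member could be tested between adult males and females, where 9.49% of 10372 genes passed. Among the listed genes Dnmt3b (log2 -0.53, adjusted p = 0.0856) and Notum (-0.50, adjusted p = 3.93e-05) were lower in males. In the fit of both livers, the interaction of Lef1 passed the test, but its adult side lay under the floor throughout. Its log2 (male/female) was lower in adult than in fetal liver by 2.66 (SE 0.795, adjusted p = 0.0141), with 2 reads over 12 adult males and 8 over 12 adult females, all libraries at or under 2 reads. Of 13026 genes 33.7% passed the threshold of 0.1. For Lefty1 the difference was -0.57 (SE 0.658, adjusted p = 0.561). With the share of reads outside genes as a covariate in each stage the value of Lef1 was -2.42 (adjusted p = 0.104) and no longer passed.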

How the data were processed

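RNA of 64 mouse samples was sequenced, as amplified cDNA for the embryos and with a total RNA kit for the other libraries. The authors deposited raw counts, the number of reads per gene symbol assigned by HTSeq after alignment to mm10. Per the labels, the tools were TopHat2 2.0.4, Bowtie2 2.1.0, SAMtools 0.1.18 and Picard. The study's methods state that duplicates were removed and give all ages, with fetuses taken at 17.5 dpc; the labels give none. Reads with more than 1 alignment, and rows that name no gene (8.63% to 49.0% of counted reads), were left out of library sizes. Duplicate removal caps the highest counts.

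Samples were grouped by the stage and gender labels. CPM are counts over reads on genes. Exon lengths came from GENCODE M21 (GRCm38), where 89.8% of symbols matched. Each comparison was fitted over all genes with edgeR 4.0.16 (R 4.3.3): TMM, filterByExpr, robust quasi-likelihood fit, two-sided F test and Benjamini-Hochberg adjustment. Male and female were compared within a stage, stages in pairs with sex as a covariate, and the livers with a stage by sex interaction. Standard errors are the absolute log2 over the square root of F. Correlations used 100000 permutations and log2 (CPM + 0.5), and summaries were made in Python 3.11.15 (pandas 2.3.3, scipy 1.17.1, numpy 2.4.6).

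Alternatives were DESeq2 1.42.0, limma 3.58.1 (voom), other scalings, no filter, no fold threshold, covariates, samples left out and a replicate block. The fits without fetal liver female 14, the ratios of pooled reads and the covariate in the interaction were added once the data had been seen. The members and lists were chosen with earlier results of these data known. Called list genes were named by size, up to 3 per direction between stages, and genes most like a member by Pearson's r. The fits were tested on simulated data. There, 200 genes per fit were given a log2 difference of 1.5, or of 2 between stages. Between embryo sexes 0 of these genes were recovered, and between ES lines and embryos 13. The other fits recovered 187 to 198. Genes given no difference were also called, 12 between ES sexes, 24 in the interaction and at most 3 in each other fit. On the measured counts the fit of ES lines and embryos called 6600 of 12478 genes, Tdgf1 among them at a log2 of 1.45. Whether the 13 recovered describe the power of that fit on measured counts was not tested. Members not called in the embryo fits may still differ. Titles number the samples, but numbers name different animals between stages, so the main fits are unpaired. Samples were separate embryos, lines and animals. The result of 1 listed gene is not reported here.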

Additional observations from a re-analysis of the deposited data

Results flagged for a closer look

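In the eight-cell embryos, groups of 6 were checked for a sample far from the others where a member had more than 3 reads. Both embryo flags came from groups where 1 embryo alone had reads, so a chance rate cannot be given for them. The Otx2 level of female embryo 8 was 1.63 CPM (9 reads) and all other female embryos had 0 reads. The Lef1 level of male embryo 6 was 0.901 CPM (6 reads) where the other male embryos had 0. In the livers, the log2 (male/female) of Lef1 was -2.66 in adult minus fetal liver (edgeR adjusted p = 0.0141). Fetal values were 7.18 and 4.48 CPM and adult reads were at most 2 per library, below the floor of 3. With the share of reads outside genes as a covariate in each stage the value was -2.42 (adjusted p = 0.104).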

How the results depend on the processing

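The direction of a tested member reversed in 3 fits, all for values near 0: Pou3f1 between ES sexes without line 1 (-0.14) and without line 4 (-0.05), and Sox11 between fetal sexes with the share of reads outside genes as a covariate (-0.17). Between ES sexes, leaving out 1 line gave 0 to 2 members and 0 to 3070 genes called, against 1205: 0 without either female line, 2606 without line 1 and 3070 without line 2. In fetal liver the covariate left 0 members, and adjusted p alone gave 2, with Lefty1 added. It moved all calls to 9, no filter to 1057 and adjusted p alone to 4807, from 600. In adult liver no filter called 1 member, Lef1 (-1.70, adjusted p = 0.0939), with 1518 genes against 984, and adjusted p alone gave 3400 genes. DESeq2 called 80 genes in embryos against 24. In the interaction the covariate left 0 members and 989 genes against 4384.

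Between fetal and adult liver 4 members were called with DESeq2 (Lefty1 and Nodal added) and 4 with no filter (Fgf5 and Lefty1 added), with 8203 genes for no filter against 5387. With library totals alone the median log2 of all genes moved by 0.56 there, by 0.38 between ES lines and embryos and by 0.14 between ES lines and fetal liver. The share of calls that were higher was 76.4% against 54.6% between the livers with library totals alone, and 70.5% with no filter against 59.3% between ES lines and embryos. The replicate block of the livers kept Lef1 at 4.53 with 2 members and 5386 genes called; it was no pairing, since numbers name different animals. Lef1 followed B markers with r = 0.362 (permutation p = 0.0821) for the log2 of the summed CPM. With voom, Otx2 (3.32) and Pou3f1 (1.79) also passed between ES lines and embryos, and with DESeq2 Lef1 did (5.63). TMM factors over all 64 libraries lowered ES levels to a median 0.760 times their value. Of 261 test values of single members under the alternatives, 248 kept direction and call. Depth limits adult livers, where most members lie under 3 reads.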
